A study of Mus musculus with 6 samples.

Results

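The genes described here are 9 genes of hepatic glucose output and glycogen storage in mouse liver, chosen by name out of the 18443 genes that the deposited tables list in at least 1 library. They are G6pc, Pck1, Fbp1, Pcx, Slc37a4, Slc37a1, Ppargc1a, Gys2 and Pygl, and all 9 had reads in all 6 libraries. They were picked by symbol with no threshold on a value, but with earlier results of these data known, and G6pc and Slc37a1 are also among the genes that the study selected on these same libraries for display, so their changes are not independent evidence of a direction.

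RNA of whole liver was sequenced on a BGISEQ-500 instrument from male C57BL/6 mice (C57BL/6J in the methods), aged 6 to 8 weeks when the experiments began, with 1 library for each of 6 conditions in 2 models. In the diet model, mice received a standard chow diet (SD), a high fat diet (HFD) for 16 weeks, whose library is labelled as nonalcoholic steatohepatitis (NASH), or HFD and 4 weeks of JT003. The methods also describe an arm with a methionine and choline deficient diet, which the label of the HFD library does not name. In the CCl4 model, mice received corn oil, CCl4 in corn oil every 3 days for 6 weeks as a model of liver fibrosis, or CCl4 and 3 weeks of JT003. JT003 is a peptide agonist of the adiponectin receptors AdipoR1 and AdipoR2, injected daily at 0.5 mg/kg, and the methods give 6 mice per group and a fast of 8 h before sacrifice. The sources used here do not give how many mice went into a library, nor the hour of sacrifice.

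The liver makes glucose from lactate, glycerol and amino acids (gluconeogenesis) and releases it from glycogen (glycogenolysis), and both routes meet at glucose 6-phosphate. Pyruvate carboxylase (Pcx), phosphoenolpyruvate carboxykinase (Pck1) and fructose bisphosphatase (Fbp1) carry out steps of gluconeogenesis that glycolysis cannot run backwards. Glucose 6-phosphate then enters the endoplasmic reticulum through the transporter encoded by Slc37a4, where the catalytic subunit of glucose-6-phosphatase (G6pc) frees glucose. Slc37a1 encodes a related phosphate antiporter. Gys2 encodes the liver glycogen synthase, Pygl the liver glycogen phosphorylase, and Ppargc1a the coactivator PGC1α, which is known for driving gluconeogenic genes in fasting. Insulin is known to repress G6pc and Pck1, and glucagon acting through cAMP to induce them.

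Promoter sequences, from 250 bases before to 50 bases after the gene start, were found in RefSeq (build GRCm38.p6) for 8 of the 9 genes, in 11 windows. Those of G6pc, Pck1 and Pygl are shown because these genes stood apart in the comparisons that follow or, for Pck1, because it is the most abundant of the 9. Slc37a1 also stood apart, but its window held none of the motifs searched and is not shown, so the windows shown are those with a motif to mark. The G6pc window lies at chr11:101367466-101367765 on the plus strand, that of Pck1 at chr2:173152823-173153122 on the plus strand and that of Pygl at chr12:70227634-70227933 on the minus strand, each written 5′ to 3′ of the gene. Capitals mark the letters TGTTTTG, the core of an insulin response element, in G6pc, and CGTCA, the reverse complement of the cAMP response element core TGACG, in Pck1 and Pygl.
G6pc: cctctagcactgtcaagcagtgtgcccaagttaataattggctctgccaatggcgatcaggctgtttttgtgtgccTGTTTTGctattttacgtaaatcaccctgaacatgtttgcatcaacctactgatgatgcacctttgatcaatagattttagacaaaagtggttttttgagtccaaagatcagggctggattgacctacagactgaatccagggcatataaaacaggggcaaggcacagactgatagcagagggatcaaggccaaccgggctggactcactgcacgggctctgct
Pck1: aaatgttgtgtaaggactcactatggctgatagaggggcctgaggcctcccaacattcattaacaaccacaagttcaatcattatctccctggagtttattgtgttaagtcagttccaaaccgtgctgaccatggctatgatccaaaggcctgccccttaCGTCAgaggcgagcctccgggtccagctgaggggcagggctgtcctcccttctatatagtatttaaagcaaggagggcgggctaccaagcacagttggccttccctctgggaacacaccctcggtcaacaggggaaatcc
Pygl: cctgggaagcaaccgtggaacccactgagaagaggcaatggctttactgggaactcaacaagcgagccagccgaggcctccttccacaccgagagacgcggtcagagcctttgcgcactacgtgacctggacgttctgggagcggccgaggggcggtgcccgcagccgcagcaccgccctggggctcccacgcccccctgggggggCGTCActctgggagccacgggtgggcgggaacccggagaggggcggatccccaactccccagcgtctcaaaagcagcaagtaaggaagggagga
The letters TGTTTTG began 174 bases before the start of G6pc and were found in no other window of the 9 genes, against 6.28% of all 32851 promoter windows on either strand. TGACG was found on either strand in 5 of the 11 windows, of Pck1 (90 bases before the start), Pygl (44 bases before), Ppargc1a and Slc37a4, and in 20.8% of all windows. The Slc37a4 windows at chr9:44396696-44396995 and chr9:44396849-44397148 overlap and share a TGACG, so the 5 windows are not independent. The full cAMP response element TGACGTCA, the FOXO motif GTAAACA, the HNF4 motif CAAAGTCC and the glucocorticoid receptor motif AGAACA were in 0 of the 11 windows, and in 1.79%, 3.65%, 1.42% and 18.97% of all windows. The direct repeat of PPAR response elements was also in 0 of the 11 windows, and in 0.0396% of all windows. TGACG is part of TGACGTCA, so these 2 searches overlap.

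The values are expected counts, the authors' estimate of the reads of each gene, rounded here to whole numbers. They summed to 19374236 to 20184539 per library over 16082 to 16738 genes. Levels are given as scaled CPM, counts per 1000000 reads after TMM scaling over the 6 libraries, and differences as log2 ratios of 2 libraries with a 95% Clopper-Pearson interval. The interval covers counting error only, and no condition has a second deposited library as a replicate, so each comparison is of libraries and not of conditions and has no p-value. A gene is called at least 2-fold higher or lower where the log2 ratio is at least 1 in size, among genes with at least 10 counts in 1 of the 2 libraries. The HFD library enters both diet comparisons and the CCl4 library both CCl4 comparisons, so that a deviation of either shows with opposite signs in both. In bulk liver RNA, fewer hepatocytes and less RNA per hepatocyte cannot be told apart.

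The libraries had the markers of liver, with 8 of 9 hepatocyte markers found and a summed level of 94850 to 111797 CPM, and acinar and skeletal muscle markers each summed to less than 1 CPM. Other values that differed between the libraries bear on the genes described here, and their part in the results was not tested. The 9 periportal hepatocyte markers, of the zone where gluconeogenesis is most active, summed to 11553 CPM in SD, 7806 in HFD, 7222 in HFD plus JT003, 12438 in corn oil, 9997 with CCl4 and 9483 with CCl4 plus JT003. The 9 pericentral markers summed to 9953, 11748, 16124, 12583, 2929 and 4406 CPM in the same order. Most of that sum was Cyp2e1, at 6780, 8689, 12681, 8902, 1844 and 3620 CPM, and single markers differed. From corn oil to CCl4, Glul went from 874 to 92.5 CPM but Cyp1a2 from 397 to 583. Oat was at 1607 CPM in SD and 775 in HFD plus JT003. The clock gene Dbp had 398, 1738, 977, 824, 96 and 1931 counts and Arntl had 195, 46, 70, 142, 386 and 34, so that SD and CCl4 had the least Dbp and the most Arntl, and HFD and CCl4 plus JT003 the reverse. Npas2 was also highest in SD and CCl4 (58 and 179 counts), but not all clock genes followed. Nr1d1, listed with Dbp, had 2649 counts in SD and 1264 in CCl4 plus JT003. Cry1, listed with Arntl, had 68 in SD and 418 in HFD plus JT003. The 5 markers of cycling cells summed to 3.39 to 13.8 CPM in 5 libraries and to 173 CPM in CCl4.

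**Figure D1:**
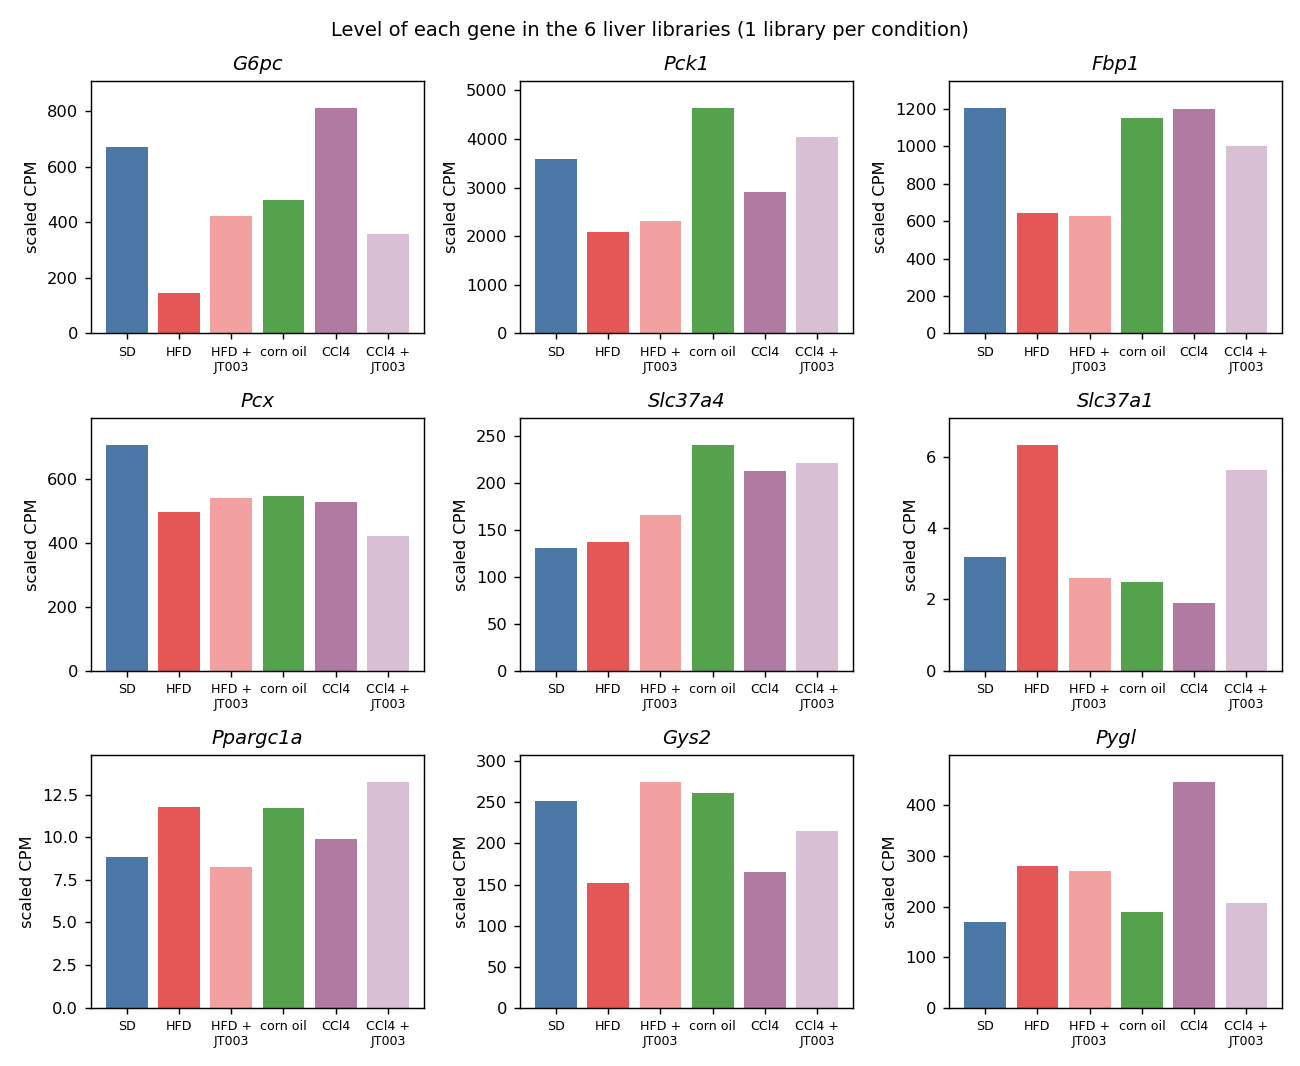
Scaled CPM (vertical axis, from 0, a scale of its own for each gene) of the 9 genes in the 6 libraries (horizontal axis). Each bar is 1 library, so there is no error bar between mice. G6pc spans 146 to 810 CPM and Pck1 2095 to 4634, while Slc37a1 and Ppargc1a stay at or under 13.2.

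Per kilobase of transcript, Pck1 was the most abundant of the 9 genes in all 6 libraries, from 809.21 FPKM in HFD to 1701.01 in CCl4 plus JT003. Fbp1 followed, from 436.09 to 854.55 FPKM, and G6pc ranged from 65.04 to 372.97. The Slc37a4 transporter had 58.55 to 117.61 FPKM, Pcx 112.06 to 158, Pygl 55.82 to 164.91 and Gys2 57.48 to 104.92. Slc37a1, at 0.62 to 2 FPKM, and Ppargc1a, at 1.26 to 2.24, were the lowest. By the ratio of the highest to the lowest scaled CPM over the libraries, G6pc varied most (5.55 times), followed by Slc37a1 (3.35), Pygl (2.63) and Pck1 (2.21), and the other 5 genes varied by 1.61 to 1.93 times.

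The first comparison asks how the genes of glucose output stood in the liver after HFD. G6pc was 4.58-fold lower in HFD than in SD, Pck1, Fbp1, Pcx and Gys2 were lower by less than 2-fold, and Pygl, Slc37a1 and Ppargc1a were higher by less than 2-fold. Of the 9 genes, 1 was at least 2-fold lower and 0 were at least 2-fold higher, where 4.14% and 5.94% of the 13334 genes compared were so. Over all genes 792 were higher and 552 lower, and 985 and 440 with total counts. The median log2 ratio of the 9 genes was -0.51, against 0.00 over all genes.

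The 4 enzymes of gluconeogenesis among the genes described here were each lower in HFD. G6pc had 12625 counts in SD and 2934 in HFD, a log2 ratio of -2.20 (-2.26 to -2.14), which only 0.697% of all genes were below. Pck1 had 67760 and 42099 counts (-0.78, -0.80 to -0.76). Fbp1 had 22692 and 12928 counts, a log2 ratio of -0.90 (-0.93 to -0.87). Pcx, the entry enzyme from pyruvate, had 13346 and 9999 counts and a log2 ratio of -0.51 (-0.55 to -0.47). These 4 differences are outside counting error, and G6pc differed most.

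The transporters did not move with the phosphatase. Slc37a4, whose product hands the substrate to G6pc, had 2467 counts in SD and 2751 in HFD, with an interval of the log2 ratio that includes 0 (0.07, -0.01 to 0.14). Slc37a1 had 60 and 127 counts, and its log2 ratio of 0.97 (0.54 to 1.46) was just under the 2-fold limit and just over it with 2 other scalings (1.09 with total counts, 1.03 with log2(FPKM + 0.1)). The coactivator gene Ppargc1a had 167 counts in SD and 236 in HFD (0.40, 0.12 to 0.70). It was thus higher in the library in which G6pc, Pck1, Fbp1 and Pcx were lower.

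The glycogen enzymes stood apart from each other. Gys2, which builds glycogen, had 4755 counts in SD and 3053 in HFD (-0.73, -0.80 to -0.66). Pygl, which breaks it down, had 3203 and 5632 counts (0.72, 0.66 to 0.79). Synthase was lower and phosphorylase higher in HFD, both by less than 2-fold.

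**Figure D2:**
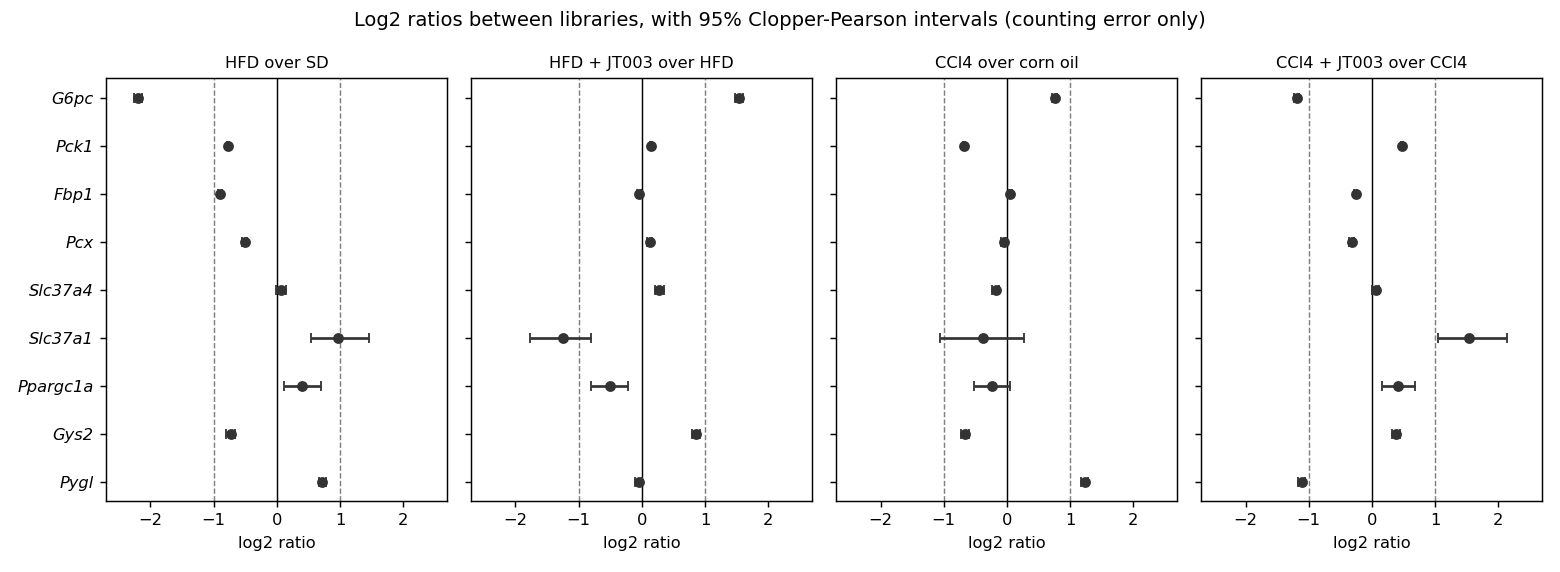
Log2 ratios (horizontal axis) of the 9 genes (vertical axis) in the 4 comparisons, 1 panel each. Points are ratios of 2 libraries, bars are 95% Clopper-Pearson intervals that cover counting error only, and dashed lines mark 2-fold. G6pc lies at -2.20, 1.53, 0.75 and -1.19 from left to right.

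Other genes of the same pathways are given from lists chosen by name. Of 20 other gluconeogenic enzymes and carriers with enough reads, 5 were at least 2-fold lower in HFD and 0 higher, with a median log2 ratio of -0.53 and 17 of 20 below 0. The lowest were the serine dehydratase-like gene Sdsl (652 counts in SD and 108 in HFD, -2.66) and the cytosolic aspartate aminotransferase Got1 (7491 and 1557, -2.36). The other 3 were glycerol kinase Gk (-1.55), lactate dehydrogenase Ldha (-1.44) and the glycerol phosphate dehydrogenase Gpd1 (-1.03), several of which also serve glycolysis or other routes. The highest, the carrier Slc25a10 and the aminotransferase Gpt, were each at 0.08.

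Genes of glucose entry and glycolysis held the largest difference of the lists in this comparison, that of Pdk4. Of 24 genes, 2 were at least 2-fold higher in HFD and 1 lower, with a median of 0.07. Pfkfb3, which makes the activator of phosphofructokinase, had 216 and 1272 counts (2.46), and the liver pyruvate kinase gene Pklr had 1539 and 3521 (1.10). Pdk4, which shuts pyruvate dehydrogenase in fasting, had 2207 counts in SD and 128 in HFD (-4.18, -4.47 to -3.94).

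Of 24 other glycogen genes, 5 were at least 2-fold higher in HFD and 1 lower, and the median was 0.08. The higher ones were the glycogen-targeting phosphatase subunit Ppp1r3b (1551 and 4263 counts, 1.37), the UDP-glucose pyrophosphorylase Ugp2 (1.29), the branching enzyme Gbe1 (1.07) and, at under 60 counts in both libraries, Epm2a (1.07) and Nhlrc1 (1.45). Another targeting subunit, Ppp1r3g, had 194 counts in SD and 18 in HFD (-3.38). Of 35 regulators, 4 were at least 2-fold lower and 0 higher, with a median of -0.09. These were Igfbp1, an insulin-repressed gene of the liver (5316 and 596 counts, -3.24), the salt-inducible kinase Sik1, which cAMP induces (1123 and 175, -2.76), the insulin receptor substrate Irs2 (-1.44) and the nuclear receptor Nr4a1 (-1.19). The highest regulators were Mlxipl, the glucose sensor ChREBP (0.64), and Foxo1 (0.58), the factor that insulin signalling keeps out of the nucleus.

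The next comparison asks how these genes stood in HFD mice given JT003. G6pc was 2.90-fold higher and Slc37a1 2.38-fold lower in HFD plus JT003 than in HFD, Gys2 was higher by just under 2-fold, and Pck1, Fbp1, Pcx and Pygl had log2 ratios of -0.05 to 0.14. Of the 9 genes, 1 was at least 2-fold higher and 1 lower, against 2.35% and 2.36% of the 13452 genes compared. The median of the 9 log2 ratios was 0.12, against 0.00 over all genes.

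G6pc had 2934 counts in HFD and 8632 in HFD plus JT003, a log2 ratio of 1.53 (1.47 to 1.60), which 99.3% of all genes were below. It lay between HFD and SD, at a log2 ratio of -0.66 (-0.70 to -0.62) against SD. Pck1 had 42099 and 47208 counts (0.14, 0.12 to 0.16) and stayed at -0.64 against SD. Fbp1 had 12928 and 12747 counts (-0.04, -0.08 to -0.01), and at -0.95 against SD it was about as far from SD as in HFD (-0.90). Pcx had 9999 and 11067 counts (0.12, 0.08 to 0.16). Among these 4 enzymes, G6pc was 2.90-fold higher and the other 3 were within 0.14 of HFD on the log2 scale.

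Slc37a4 had 2751 counts in HFD and 3390 in HFD plus JT003 (0.28, 0.21 to 0.35). Slc37a1 had 127 and 53 counts, and its log2 ratio of -1.25 has a wide interval (-1.77 to -0.81). With log2(FPKM + 1), which compresses low values, that difference was -0.71. Ppargc1a had 236 and 168 counts, a log2 ratio of -0.51 (-0.81 to -0.22), while G6pc was higher. Gys2 had 3053 and 5601 counts (0.85, 0.79 to 0.92), and reached its highest level of the 6 libraries in HFD plus JT003. Pygl had 5632 and 5518 counts, with an interval that includes 0 (-0.05, -0.11 to 0.00). Against SD, 0 of the 9 genes of the HFD plus JT003 library were at least 2-fold apart, where 11.1% of all genes were so in either direction.

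The counts of list genes at least 2-fold apart with JT003 on HFD stand beside 2.35% higher and 2.36% lower over all genes compared. Of 20 other gluconeogenic genes, 0 were higher and 1 was lower, the serine dehydratase Sds (1926 and 973 counts, -1.01), and the tyrosine aminotransferase Tat was close to it (20635 and 10798 counts, -0.96). Got1 and Sdsl, the lowest in HFD, had further log2 ratios of -0.43 and -0.09, and Ldha and Gpd1 of -0.27 and -0.20. Gk, also at least 2-fold lower in HFD than in SD, was higher with JT003 (2614 and 4031 counts, 0.60). It was the highest of this list, followed by the carrier gene Mpc2 (0.43). Of 24 genes of glycolysis and glucose entry, 0 were higher and 1 lower, Pfkfb3 (1272 and 450 counts, -1.52), while Pdk4 had 128 and 259 counts (0.98). Of 24 glycogen genes, 1 was lower (Nhlrc1, 56 and 22 counts) and 0 higher, and Ppp1r3b (0.71) was the highest of those with at least 100 counts. Of 35 regulators, 2 were higher and 0 lower, Sik1 (175 and 700 counts, 1.97) and Igfbp1 (596 and 1488 counts, 1.29), both of which had been at least 2-fold lower in HFD than in SD.

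**Figure D3:**
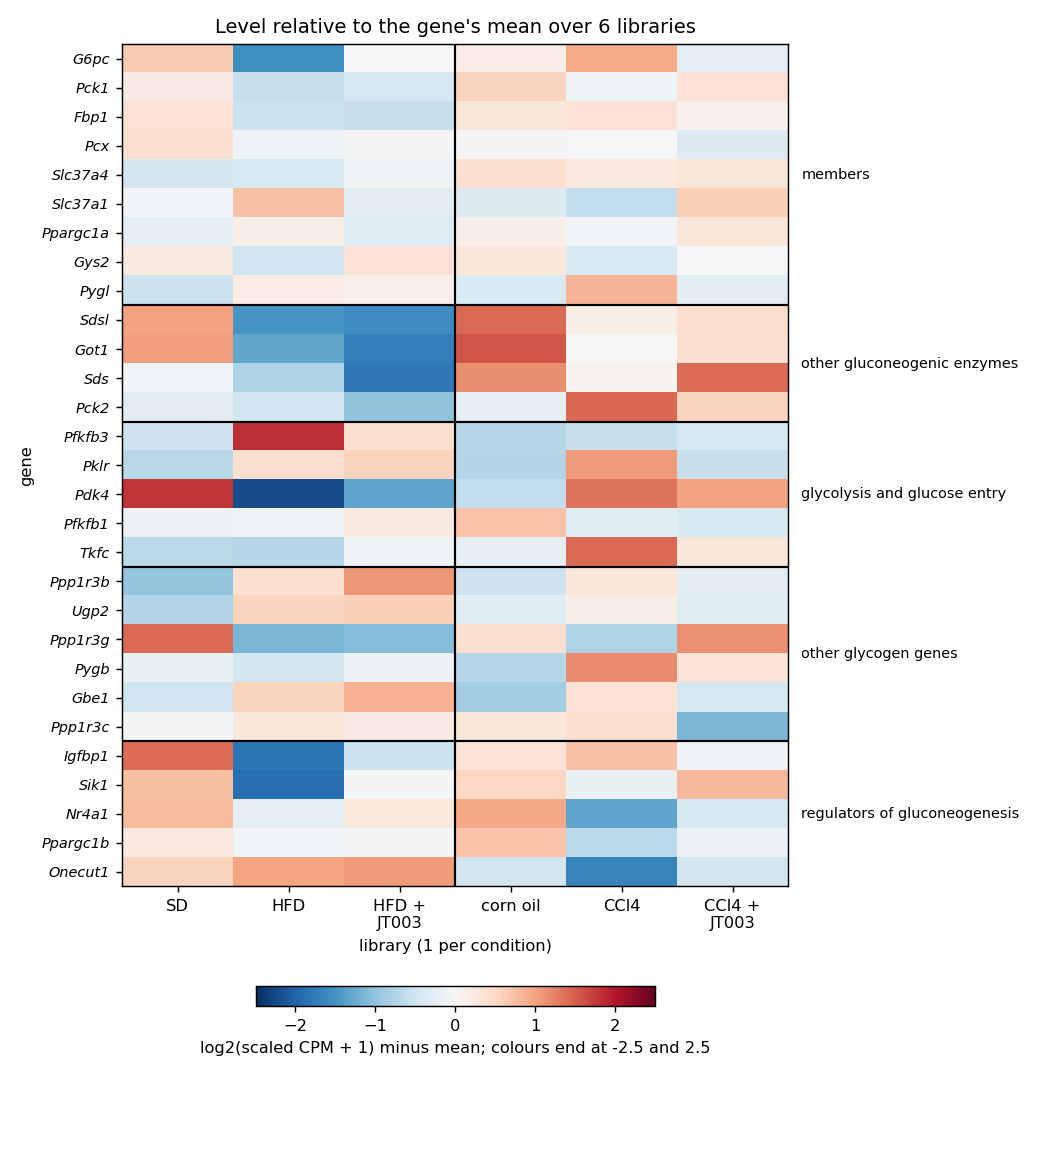
Level of each gene (vertical axis) in each library (horizontal axis) as log2(scaled CPM + 1) minus the mean of the gene over the 6 libraries. Red is above and blue below the mean, the vertical line divides the diet from the CCl4 model, and the genes under the 9 members are those named by the rule that were at least 2-fold higher or lower in a comparison. In HFD, G6pc, Sdsl, Got1, Pdk4, Igfbp1 and Sik1 are blue where Pfkfb3 is red.

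The CCl4 model asks the same of a toxic injury. In CCl4 against corn oil, Pygl was 2.35-fold higher, G6pc was higher and Pck1 and Gys2 were lower by less than 2-fold, and the other 5 genes had log2 ratios of -0.37 to 0.06. Of the 9 genes, 1 was at least 2-fold higher and 0 lower, where 8.34% and 5.11% of the 13602 genes compared were so. The call of Pygl rests on the CCl4 library, since its log2 ratio was 0.96 with the authors' pooled CCl4 counts and 0.79 with the other CCl4 reads described further on, where Slc37a1 was called in its place (1.19). Over all genes 1134 were higher and 695 lower, but 1652 and 447 with total counts and 1813 and 598 with the other CCl4 reads. The median of the 9 log2 ratios was -0.18, against -0.02 over all genes.

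Pygl had 3224 counts in corn oil and 9451 in CCl4, a log2 ratio of 1.23 (1.18 to 1.29), the highest level of the 6 libraries. Gys2 had 4437 and 3497 counts (-0.66, -0.73 to -0.60), so that phosphorylase was higher and synthase lower, as in HFD. G6pc had 8164 and 17176 counts (0.75, 0.72 to 0.79), and 1.02 with total counts or FPKM. Pck1 had 78782 and 61486 counts and a log2 ratio of -0.68 (-0.69 to -0.66), opposite in sign to G6pc.

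Fbp1 had 19556 and 25371 counts (0.06, 0.03 to 0.08) and Pcx 9316 and 11201 (-0.05, -0.09 to -0.01, and 0.21 with total counts). Slc37a4 had 4091 and 4507 counts (-0.18, -0.24 to -0.12, and 0.09 with total counts). These 3 were within 0.18 of 0 on the log2 scale with the CCl4 library, but at -0.54, -0.34 and -0.40 with the other CCl4 reads. The intervals of Slc37a1 (42 and 40 counts, -1.05 to 0.27) and of Ppargc1a (199 and 210 counts, -0.53 to 0.05) include 0 with the CCl4 library, so no difference was detectable at this depth.

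Of 20 other gluconeogenic genes, 2 were at least 2-fold higher in CCl4 and 4 lower, with a median of -0.19. Pck2, the mitochondrial form of Pck1, had 101 counts in corn oil and 455 in CCl4 (1.83), and Fbp2 had 5 and 17 counts, with an interval that includes 0. The lower ones were Got1 (9721 and 4007 counts, -1.60), Sdsl (-1.28), Tat (-1.12) and Sds (-1.08). Of 24 genes of glycolysis and glucose entry, 4 were higher and 1 lower, with a median of 0.53. Pdk4 had 364 and 1849 counts (2.02), Pklr 1350 and 5896 (1.81) and the triokinase gene Tkfc of fructose use 6339 and 24898 (1.65). Hexokinase Hk3, a gene of myeloid cells, had 21 and 68 counts, and Pfkfb1 was lower (-1.05).

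Of 23 other glycogen genes, 2 were higher, the brain-type phosphorylase Pygb (62 and 344 counts, 2.12) and Gbe1 (595 and 1765, 1.25), and 2 were lower at under 80 counts (Ppp1r3g, -1.54, and Nhlrc1, -1.16). Of 35 regulators, 0 were higher and 3 lower, Nr4a1 (181 and 30 counts, -2.82), the coactivator gene Ppargc1b (183 and 74, -1.60) and the hepatocyte factor gene Onecut1 (135 and 61, -1.43). Of the other SLC37 genes, Slc37a2 had 13 and 79 counts (2.14) and Slc37a3 had 335 and 536 (0.36).

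In CCl4 plus JT003 against CCl4, G6pc was 2.28-fold and Pygl 2.16-fold lower and Slc37a1 2.89-fold higher. Of the 9 genes, 2 were at least 2-fold lower and 1 higher, where 4.28% and 4.57% of the 13785 genes compared were so, and the median of the 9 log2 ratios was 0.06 against -0.02 over all genes. All 3 calls rest on the CCl4 library, and 0 of the 9 genes were called with the other CCl4 reads. Over all genes 590 were lower and 630 higher with the CCl4 library, and 944 and 376 with the other reads.

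G6pc had 17176 counts in CCl4 and 7647 in CCl4 plus JT003, a log2 ratio of -1.19 (-1.23 to -1.15), opposite in sign to that with JT003 on HFD. It was then below corn oil, at -0.43 (-0.48 to -0.39), but close to it by FPKM (172.59 against 183.57 in corn oil). Pygl had 9451 and 4431 counts (-1.11, -1.16 to -1.06) and with TMM scaling came to 0.12 above corn oil on the log2 scale. By FPKM it stayed further above corn oil (80.36 against 58.25). The log2 ratios against corn oil were computed with TMM scaling alone. Slc37a1 had 40 and 121 counts, a log2 ratio of 1.53 (1.05 to 2.13), and was 2.23-fold above corn oil (1.16, 0.67 to 1.73), the only 1 of the 9 genes to be at least 2-fold from corn oil, where 11.1% of all genes were so in either direction.

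Pck1 had 61486 counts in CCl4 and 86923 in CCl4 plus JT003 (0.48, 0.47 to 0.50), opposite to G6pc as in CCl4 against corn oil. Gys2 had 3497 and 4625 counts (0.38, 0.32 to 0.45), opposite to Pygl. Fbp1 had 25371 and 21490 counts (-0.26, -0.28 to -0.23) and Pcx 11201 and 9092 (-0.32, -0.36 to -0.28). Slc37a4 was close in both libraries, at 4507 and 4759 counts (0.06, 0.00 to 0.12). Ppargc1a had 210 and 284 counts (0.41, 0.15 to 0.68), and its log2 ratio was 0.03 with the other CCl4 reads, where that of Pcx was -0.03.

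Of 20 other gluconeogenic genes, 1 was at least 2-fold higher with JT003 on CCl4, Sds (3760 and 9397 counts, 1.30), and 0 were lower. Of 24 genes of glycolysis and glucose entry, 0 were higher and 2 lower, Pklr (5896 and 1913 counts, -1.64) and Tkfc (24898 and 11550, -1.13), with 16 of 24 below 0. Of 24 other glycogen genes, Ppp1r3g was higher (32 and 179 counts, 2.39), and Ppp1r3c (837 and 279, -1.60) and Epm2a were lower. Epm2a had 11 and 4 counts, with an interval that includes 0 (-3.58 to 0.28). Of 35 regulators, 3 were higher, Onecut1 (61 and 170 counts, 1.43), Nr4a1 (30 and 74, 1.23) and Sik1 (653 and 1336, 1.01), and 1 was lower, Sik2 (81 and 38, -1.07). Slc37a2 was lower (79 and 30 counts, -1.36).

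The authors' comparison table for JT003 in the CCl4 model has a further column of CCl4 counts that sums to 2.97 times the CCl4 library, and which appears to pool that library with others. Pooling is inferred from the values, since 24 genes alone were below their count in the library, by 0.99 reads at most. Taking the library away leaves 39781089 other CCl4 reads. On a common scaling, G6pc had 823 CPM in the CCl4 library and 660 in the other reads, Fbp1 1215 and 804, Pygl 453 and 333, Pck1 2945 and 2921, and Slc37a1 1.92 and 5.82. For Slc37a1 that is a log2 ratio of -1.57 (-2.12 to -1.12) between the library and the other reads, both of CCl4 mice, and 1 of the 9 genes was thus at least 2-fold apart, where 5.35% of 14547 genes were. Only 1.55% of all genes were further down in the CCl4 library.

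With the other CCl4 reads in place of the library, the log2 ratio of CCl4 over corn oil was 0.79 for Pygl, 0.44 for G6pc, -0.69 for Pck1, -0.99 for Gys2 and 1.19 for Slc37a1. That of CCl4 plus JT003 over CCl4 was -0.67 for Pygl, -0.87 for G6pc, 0.49 for Pck1, 0.71 for Gys2 and -0.02 for Slc37a1. Fbp1 changed sign in both comparisons, to -0.54 and 0.34. Pck1, G6pc, Gys2 and Pygl thus kept their direction with either set of reads, G6pc and Pygl with smaller differences, while Slc37a1 went from 1.53 to -0.02. Among the genes of the lists, Pklr, Pdk4, Pygb, Pck2 and Tkfc remained at least 2-fold higher than corn oil with the other reads (1.16, 1.48, 2.31, 1.45 and 1.05), and Onecut1, Ppp1r3g and Sik1 at least 2-fold higher with JT003 (1.83, 2.52 and 1.09). Got1 (-1.43), Sdsl (-1.55), Nr4a1 (-1.71), Ppargc1b (-1.84) and Onecut1 (-1.83) remained at least 2-fold lower than corn oil, while Gbe1 (0.93), Sds (-0.69), Tat (-0.31) and Pfkfb1 (-0.59) did not. Of the 24 genes of glycolysis and glucose entry 7 were then at least 2-fold higher than corn oil, not 4, and of the 35 regulators 6 were lower, not 3. Over all genes, 1813 were then higher and 598 lower, where 1134 and 695 were so with the CCl4 library. With JT003, Sds (0.91), Pklr (-0.998), Tkfc (-0.52), Nr4a1 (0.10) and Sik2 (-0.83) did not reach 2-fold. Ppp1r3c (-1.52), Slc37a2 (-1.56) and Epm2a (-1.49) remained at least 2-fold lower with JT003, and Pygb (-1.10) newly passed 2-fold. Epm2a had only 4 counts in CCl4 plus JT003.

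**Figure D4:**
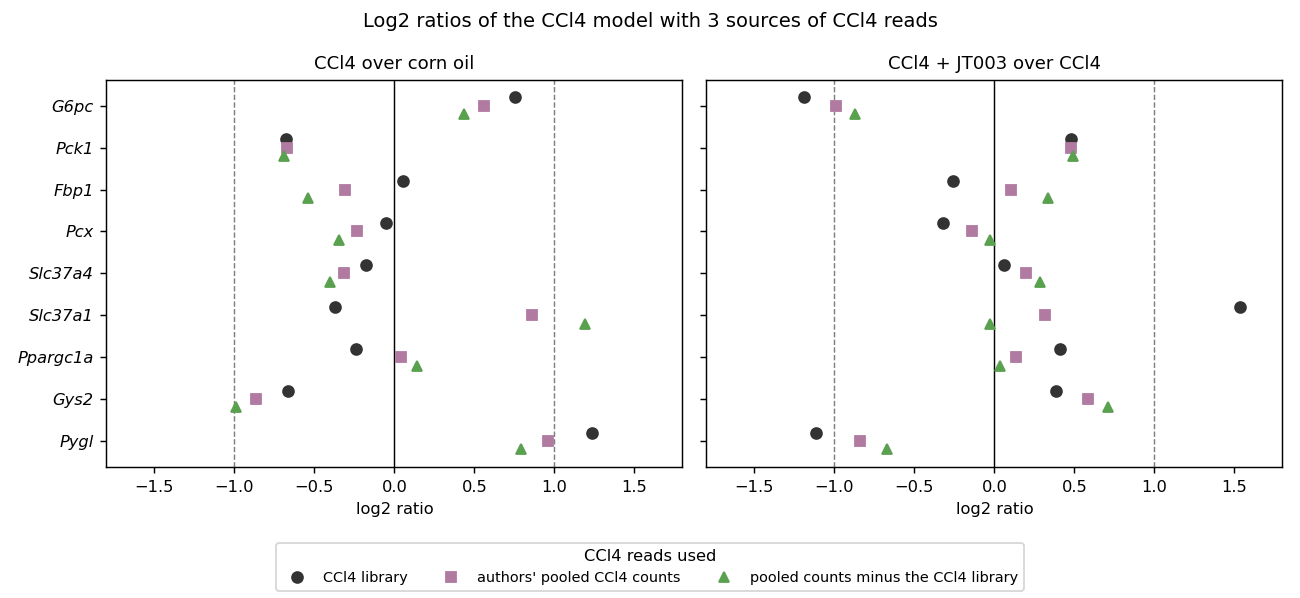
Log2 ratios (horizontal axis) of the 9 genes (vertical axis) in the CCl4 model with the CCl4 library (circles), the authors' pooled CCl4 counts (squares) and the pooled counts without the library (triangles). Dashed lines mark 2-fold. In the right panel Slc37a1 moves from 1.53 to 0.31 and -0.02, and no square or triangle lies beyond a dashed line.

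The order of the 6 libraries, given here by scaled CPM, differed from gene to gene and in part with the scaling. G6pc was highest in CCl4 (810 CPM), then in SD (669), corn oil (480), HFD plus JT003 (423), CCl4 plus JT003 (356) and HFD (146), with each step outside counting error. Pck1 ran from corn oil (4634 CPM) through CCl4 plus JT003 (4046), SD (3592), CCl4 (2900) and HFD plus JT003 (2313) to HFD (2095), also with each step outside counting error. Counting error leaves out the scaling, and some of these steps reversed by FPKM. Pck1 was then higher in CCl4 plus JT003 (1701.01 FPKM) than in corn oil (1536.02). G6pc was then higher in HFD plus JT003 (190.38 FPKM) than in corn oil (183.57). Fbp1 lay at 1000.3 to 1203 CPM in SD and the CCl4 model, where SD and CCl4 could not be told apart, and at 643 and 625 in the HFD libraries. Pcx was highest in SD (708 CPM) and lowest in CCl4 plus JT003 (423), and neighbours among corn oil, HFD plus JT003 and CCl4 (548, 542 and 528) could not be told apart.

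Slc37a4 was higher in each library of the CCl4 model (213 to 241 CPM) than in those of the diet model (131 to 166). Slc37a1 was at 6.32 CPM in HFD and 5.63 in CCl4 plus JT003, which could not be told apart, and at 1.89 to 3.18 in the other 4, of which no neighbours in order could be told apart. For Ppargc1a, at 8.23 to 13.2 CPM, no neighbours in order could be told apart. Gys2 was highest in HFD plus JT003 (274 CPM) and lowest in HFD (152), and Pygl highest in CCl4 (446) and lowest in SD (170), while the HFD libraries (280 and 270) could not be told apart for Pygl.

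The control libraries also differed. Corn oil against SD gave a log2 ratio of 0.88 (0.81 to 0.95) for Slc37a4, -0.48 for G6pc, 0.37 for Pck1, -0.37 for Pcx and 0.40 for Ppargc1a, and the other 4 genes were within 0.35 of 0 on the log2 scale. Of the 9 genes, 0 were at least 2-fold apart, where 11% of all genes were so in either direction. For G6pc the difference with HFD was larger than that between the controls, and for Slc37a4 the difference between controls was larger than that in any of the 4 comparisons.

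Genes with a pattern like that of a member over the 6 libraries were sought for the 4 members that varied by at least 2-fold, among 10278 genes. The measure was the Euclidean distance between centred log2(CPM + 1) values, and r is Pearson's over the 6 libraries as a description. Nearest to G6pc were the mitochondrial carrier gene Slc25a47 (distance 0.69, r 0.94), the interleukin 22 receptor gene Il22ra1 (0.84, 0.96) and the ephrin receptor gene Epha2 (0.85, 0.97). Slc25a47 had 19160, 6262 and 10067 counts in SD, HFD and HFD plus JT003, and 14928 in corn oil against 26758 with CCl4 and 14732 after JT003. Nearest to Pck1 were Smim4 (0.21), Gm4285 (0.25) and the ribosomal protein gene Rps27 (0.26).

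Nearest to Pygl were the flap endonuclease gene Fen1 (0.21, r 0.98), the spindle gene Gpsm2 (0.32) and the carboxylesterase gene Ces2g (0.32). Fen1 acts in DNA replication, had 42 to 157 counts and was highest in CCl4, the library with the high sum of cycling cell markers. Nearest to Slc37a1 were Gm14431 (0.40), the RNA-binding protein gene Cpeb1 (0.53) and Gm8898 (0.55). Gm14431 and Gm8898 had the same counts in each library but SD and may share reads, so they are uncertain as separate genes.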

How the data were processed

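The authors deposited, for each library, expected counts (their estimate of the reads of each gene, not normalized) and FPKM, the same reads per kilobase and per 1000000 reads. The submitters' processing notes name HISAT, Bowtie2, RSEM and the build mm9, without versions. Promoter coordinates are of GRCm38.p6 and were not compared with mm9. Of the deposited comparison tables, the authors' fold changes, p-values and scores were not used, nor were 7 expression columns. One column, of pooled CCl4 counts, served as an alternative.

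Expected counts were rounded, rows without a gene name (at most 0.000242% of a library) were left out, and 69.9% to 70.9% of values per library were whole. Sizes were scaled by TMM (edgeR 4.0.16, R 4.3.3) over the 6 libraries. Log2 ratios used a prior count of 2 and 95% Clopper-Pearson intervals (scipy 1.17.1, Python 3.11.15, numpy 2.4.6, pandas 2.3.3), and the script was tested on simulated data. Size factors of DESeq2 1.42.0 were an alternative. Plots used matplotlib 3.10.9.

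The members and lists were chosen with earlier results of these data known. A rule picked list genes, the 2 highest and 2 lowest log2 ratios per list and comparison among genes with at least 100 counts. Not all genes that it picked are named in the text. Some genes were left out of the lists and are not reported here. Others at least 2-fold apart, and those compared with them, were named after their values were seen. The 3 nearest genes are given for members that varied by 2-fold.

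Alb alone made up 5.29% to 7.62% of the reads. Intervals cover counting error only, and no spread between mice could be estimated.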

Additional observations from a re-analysis of the deposited data

Results flagged for a closer look

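Some genes moved in opposite directions in the 2 models under the same kind of contrast, with both intervals off 0. Each arm is 1 library, so none of these differences was tested. G6pc was lower with HFD (-2.20) and higher with CCl4 (0.75), a difference of log2 ratios of -2.95, and with JT003 it was higher on HFD (1.53) and lower on CCl4 (-1.19), a difference of 2.72. Slc37a1 went the other way with JT003 (-1.25 and 1.53, a difference of -2.78), and its value on CCl4 was -0.02 with the other CCl4 reads. With JT003, Ppargc1a differed by -0.92 (-0.51 on HFD and 0.41 on CCl4) and Pcx by 0.44 (0.12 and -0.32), but with the other CCl4 reads their values on CCl4 were 0.03 and -0.03. Fbp1 differed by -0.96 between HFD (-0.90) and CCl4 (0.06), and its sign in CCl4 changed with the other CCl4 reads (-0.54).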

How the results depend on the processing

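No paired analysis was possible because each condition has 1 library, and for the same reason no replicate could be left out and no test of edgeR or DESeq2 could be fitted. Over 10 alternatives (12 in the CCl4 model), 29 of the 36 log2 ratios of the 9 genes kept their sign under each alternative and 7, all in the CCl4 model, changed it under at least 1. Another fold limit or count filter leaves a ratio as it is, so those alternatives could not change a sign. TMM scaling within the model also left the diet ratios unchanged. Only the CCl4 model had alternative reads, and Fbp1 and Slc37a1 changed sign with those reads alone. The unrounded counts were chosen as an alternative after seeing the data. In HFD against SD, the number of the 9 genes called was 1, and 2 with total counts or log2(FPKM + 0.1), where Slc37a1 passed 2-fold, and 6 at 1.5-fold. In HFD plus JT003 against HFD it was 2, and 1 with log2(FPKM + 1). In CCl4 against corn oil it was 1, then 2 with total counts, log2(FPKM + 1) or log2(FPKM + 0.1), where G6pc passed 2-fold (1.02), 4 at 1.5-fold, and 0 with the authors' pooled counts (Pygl, 0.96), and with the other CCl4 reads the 1 gene called was Slc37a1 (1.19) and not Pygl (0.79). In CCl4 plus JT003 against CCl4 it was 3, and 0 with the pooled or the other CCl4 reads, and Slc37a1 reversed to -0.024 with the latter. Total counts moved the median of all genes to 0.13 in HFD against SD and 0.24 in CCl4 against corn oil, which shifted each gene's ratio likewise, so that Pcx, Slc37a4 and Ppargc1a in CCl4 against corn oil changed sign (0.21, 0.09 and 0.02). Over all genes, the number higher and lower was 792 and 552 in HFD against SD, 985 and 440 with total counts, 364 and 330 with at least 100 counts, 340 and 203 with log2(FPKM + 1) and 1792 and 1357 at 1.5-fold. In CCl4 against corn oil it was 1134 and 695, 1652 and 447 with total counts, 1811 and 588 with the pooled and 1813 and 598 with the other CCl4 reads. In CCl4 plus JT003 against CCl4 it was 630 and 590, 364 and 944 with the pooled and 376 and 944 with the other CCl4 reads. Slc37a1 and Ppargc1a had at most 284 counts, and their depth limits the precision most.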
